A study of Rattus norvegicus and Mus musculus with 24 samples.

Results

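The genes described here are 10 regulators of cell division: the transcription factors E2F1, E2F2, E2F3, E2F7, E2F8, FOXM1 and MYBL2, the E2F partner TFDP1, and the retinoblastoma (RB) proteins RB1 and RBL1. They were chosen as a named family, by symbol, and not by a threshold on measured values. The choice of members, and of the related lists below, was made with earlier results of these data known. Counts of calls among them are therefore descriptions. The mouse table listed 9 of these 10 among 17376 symbols (TFDP1 was not analysed in the mouse), and the rat table listed all 10 among 14931 symbols. The study sequenced kidney mRNA from animals lacking Ctns, the gene for the lysosomal cystine transporter that is lost in cystinosis, and from wild-type controls of the same species. There were 4 Ctns KO and 4 Ctns WT mice (C57BL/6 background) and 8 Ctns KO and 8 Ctns WT rats (Sprague-Dawley), 1 library per animal. The controls were littermates matched for age and sex, and no further allele or treatment is given for these libraries. The ages and sexes themselves are not in the labels. Rats carried the numbers 17 to 24 or 25 to 32, with 4 animals of each genotype in each range, and what the ranges stand for is not given.

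E2F factors bind DNA together with a DP partner such as TFDP1. In resting cells RB1 and its relatives RBL1 and RBL2 hold E2F activity down. When cyclin-dependent kinases phosphorylate the RB proteins, the activators E2F1, E2F2 and E2F3 switch on genes for entry into S phase. E2F7 and E2F8 are themselves switched on at that point and repress the same genes later. MYBL2, bound to the MuvB complex, and then FOXM1 drive the genes of G2 and mitosis. In the adult kidney most tubule cells are out of the cell cycle, and levels of these activators are low.

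Library depth was 19309371 to 44449845 reads on listed symbols in the mice and 24684097 to 40629873 in the rats, so the low genes E2F7 and E2F8 rested on few reads. The knocked-out gene, CTNS, fell by 1.46 on the log2 scale in KO mice (SE 0.08, limma adjusted p = 1.82e-07). In KO rats CTNS was 19.1 ± 1.86 CPM (reads scaled to library size, SD, n = 8) against 22.3 ± 2.98 CPM in WT rats. The rat groups overlapped, the log2 fold change was -0.22 and the edgeR adjusted p was 0.0511, so its level does not check the rat labels. The sources name kidney cortex, proximal tubule cells and dissected tubules. Transcripts of other nephron parts were abundant, among them UMOD of the thick ascending limb at a mean of 2557 CPM in the rats and 104 times the library's 75th percentile in the mice. The endothelial gene KDR was read as well, at 140 CPM in the rats.

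In mouse kidney, 4 of the 9 listed members were higher in Ctns KO than in Ctns WT animals (limma, adjusted p under 0.05) and 0 were lower, also at an unadjusted p under 0.05 and with edgeR or DESeq2 on the recovered reads. The 4 were FOXM1, E2F8, E2F7 and E2F1. Over all 13132 symbols tested, 6.37% were called higher and 2.33% lower. The values are the authors' scaled values, in which 1 is the 75th percentile of a library. E2F7 and E2F8 lay near the filter on low values, a mean of 0.01 over the 8 mice, and both passed it only through the KO mice, with WT means of 0.00619 and 0.00715.

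FOXM1, a forkhead factor that activates mitotic genes, showed the smallest adjusted p among the mouse members. Its scaled values were 0.116, 0.128, 0.0942 and 0.0789 in KO mice 3, 5, 6 and 8, and 0.0257, 0.04, 0.0353 and 0.0319 in WT mice 1, 2, 4 and 7. The lowest KO mouse was well above the highest WT mouse. The means were 0.104 ± 0.0222 and 0.0333 ± 0.00601 (SD, n = 4), a 3.13-fold difference (log2 fold change 1.65, SE 0.20, limma adjusted p = 0.000161). In GRCm38 the gene lies on the plus strand of chromosome 6 from 128362967 to 128376146 and shares 144 exonic bases with Tex52.

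E2F1, an activator of S-phase genes, had scaled values of 0.185, 0.17, 0.158 and 0.134 in KO mice 3, 5, 6 and 8. In WT mice 1, 2, 4 and 7 E2F1 was 0.088, 0.105, 0.0854 and 0.0968. Again every KO mouse was above every WT mouse. The difference was 1.72-fold (log2 fold change 0.78, SE 0.13, limma adjusted p = 0.00179). The mouse gene lies on the minus strand of chromosome 2 from 154559407 to 154569892.

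The repressors E2F8 and E2F7 showed larger ratios on far fewer reads. E2F8 had 31, 35, 47 and 44 reads in KO mice 3, 5, 6 and 8 and 12, 9, 12 and 3 reads in WT mice 1, 2, 4 and 7. On the scaled values this was 0.0291 ± 0.00291 against 0.00715 ± 0.00379 (SD, n = 4), with groups that did not overlap (log2 fold change 2.30, SE 0.49, limma adjusted p = 0.0116). E2F8 (chromosome 7, 48866429 to 48881596, minus strand) shares 610 exonic bases with Gm2788 on the opposite strand, and whether the counting used strand is not given. E2F7 had 22, 17, 38 and 26 reads in KO mice and 10, 5, 2 and 21 in WT mice, in the same order of animals. Scaled to library size the E2F7 groups did not overlap (0.0134 was the lowest KO and 0.0103 the highest WT value), with a log2 fold change of 1.85 (SE 0.49, limma adjusted p = 0.0322). That call was lost on leaving out any one of KO mice 3, 5, 6 or 8, where the adjusted p became 0.0967, 0.059, 0.118 and 0.056, and it is the least secure of the mouse calls.

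The other mouse members did not pass the test. E2F2, the third activator beside E2F1 and E2F3, was 0.0734 to 0.0885 in KO and 0.0545 to 0.0674 in WT mice, so its groups did not overlap, but its log2 fold change of 0.39 (SE 0.14) had a limma adjusted p of 0.113. Groups in which every KO mouse was above every WT mouse were found for 5 members, and for 9.26% of all symbols tested. E2F3 overlapped between groups, at 0.186 ± 0.0182 in KO and 0.158 ± 0.0124 in WT mice (log2 fold change 0.24, SE 0.11, limma adjusted p = 0.226). MYBL2, which acts between the E2Fs and FOXM1, was level: 0.0507, 0.031, 0.0299 and 0.039 in KO mice 3, 5, 6 and 8 and 0.0454, 0.0312, 0.0532 and 0.0286 in WT mice 1, 2, 4 and 7 (log2 fold change -0.06, SE 0.25, limma adjusted p = 0.927). RB1 was 1.05 ± 0.0630 in KO and 1.02 ± 0.0846 in WT mice (log2 fold change 0.05, SE 0.07, limma adjusted p = 0.789). RBL1, also called p107, was 0.255 ± 0.0108 and 0.226 ± 0.0298 (log2 fold change 0.19, SE 0.10, limma adjusted p = 0.337). The RB-side genes thus overlapped between genotypes in the mice, and the members that rose were E2F factors and FOXM1.

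**Figure D1:**
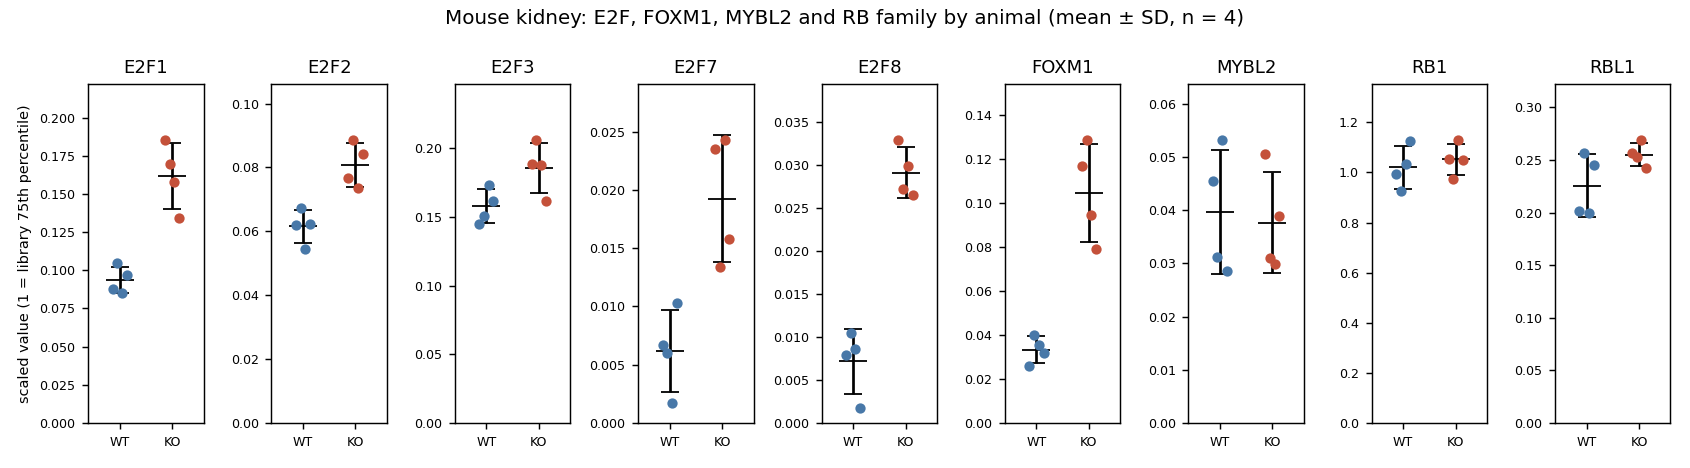
Scaled value (1 is a library's 75th percentile) of each member in every mouse, WT in blue and KO in red, with the mean and SD of 4 animals and an axis from 0 in each panel. The KO points lie above all WT points for E2F1, E2F2, E2F7, E2F8 and FOXM1, and the groups overlap for E2F3, MYBL2, RB1 and RBL1.

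Per length of transcript, RB1 was by far the most abundant of the 9 members listed in the mouse, where TFDP1 was not analysed. RPKM, the reads scaled to the length of a gene's merged exons and to library size, was 7.98 ± 0.699 for RB1 in WT mice (SD, n = 4) and 8.65 ± 0.429 in KO mice. Next in WT mice came RBL1 at 1.77 ± 0.211 RPKM, then E2F1 at 1.39 ± 0.111 and E2F3 at 1.36 ± 0.119, of which the last pair overlapped. E2F2 followed at 0.589 ± 0.0431 RPKM, and MYBL2 at 0.400 ± 0.124 overlapped both E2F2 and FOXM1 (0.269 ± 0.0466). E2F8 at 0.0587 ± 0.0317 and E2F7 at 0.0303 ± 0.0186 RPKM were lowest and overlapped each other. In KO mice E2F1 stood at 2.53 ± 0.340 RPKM, above RBL1 (2.10 ± 0.0684) on average and overlapping it only at the edge (lowest E2F1 mouse 2.12, highest RBL1 mouse 2.18), and FOXM1 at 0.896 ± 0.195, overlapping E2F2 (0.815 ± 0.0781). MYBL2 was 0.399 ± 0.103 RPKM in KO mice, E2F8 0.261 ± 0.0248 and E2F7 0.103 ± 0.0288, so the repressors stayed the lowest members in both genotypes. RB1 (chromosome 14, 73183673 to 73325822, minus strand) shares 408 exonic bases with Lpar6 and 488 with Rcbtb2, both on the opposite strand.

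In rat kidney, 6 of the 10 members were higher in Ctns KO animals (edgeR, adjusted p under 0.05) and 0 were lower. At an unadjusted p under 0.05, 1 was lower (RB1), and 0 were called lower with DESeq2 or limma-voom. RB1 was called lower with the number range as a covariate, as given below. The 6 were E2F1, E2F8, FOXM1, MYBL2, TFDP1 and E2F7. Over all 11584 symbols tested, 15.2% were called higher and 12.3% lower. Every KO rat was above every WT rat for 3 members, E2F1, E2F8 and FOXM1, and for 3.89% of all symbols tested. The symbol E2F1 needs care in the rat, because its row was identical in all 16 rats to that of NECAB3, the neighbouring gene 140 bases away on chromosome 3 of GRCr8. Which of the 2 genes the reads came from cannot be told apart, and each rat value for E2F1 below is equally a value for NECAB3. In the mouse the rows were separate, and NECAB3 there was 0.0106 in KO and 0.0108 in WT mice (log2 fold change -0.06, SE 0.33, limma adjusted p = 0.942). These values lie at the filter on low values with a wide standard error, and they do not settle the rat row.

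The E2F1 row ranged from 3.002 to 8.65 CPM (median 6.93) in KO rats and from 1.14 to 2.09 CPM (median 1.54) in WT rats. No KO rat came down to the WT range. The means were 6.26 ± 2.05 and 1.54 ± 0.326 CPM (SD, n = 8), a 4.07-fold difference (log2 fold change 2.02, SE 0.21, edgeR adjusted p = 4.40e-06). E2F8 ranged from 0.351 to 2.30 CPM (median 0.954) in KO and from 0.147 to 0.336 CPM (median 0.215) in WT rats. Its counts were 11 to 75 reads in KO and 4 to 13 reads in WT rats, and the lowest KO rat, 18, was just above the highest WT rat. The log2 fold change of E2F8 was 2.36 (SE 0.34, edgeR adjusted p = 0.000108).

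FOXM1 was read far more often than E2F8 and its groups were well apart in the rats, at 6.39 to 10.5 CPM (median 7.90) in KO and 3.27 to 5.31 CPM (median 4.67) in WT animals. The ratio was 1.79-fold (log2 fold change 0.84, SE 0.12, edgeR adjusted p = 0.000104). MYBL2 ranged from 2.97 to 5.02 CPM (median 4.32) in KO and from 1.40 to 3.14 CPM (median 2.08) in WT rats. Only KO rat 18 (2.97 CPM) lay below the highest WT rat, 17 (3.14 CPM). MYBL2 rose by 0.92 on the log2 scale (SE 0.17, edgeR adjusted p = 0.000761). E2F7, on 6 to 26 reads in KO and 2 to 11 reads in WT rats, overlapped between groups (0.192 to 0.798 against 0.0741 to 0.372 CPM) and rose by 1.21 on the log2 scale (SE 0.34, edgeR adjusted p = 0.0133). Because E2F7 and E2F8 were near the count filter in WT rats, they were tested largely through their KO levels.

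TFDP1, the DNA-binding partner of the E2Fs, showed a small and even difference. It was 35.5 to 42.1 CPM (median 39.0) in KO and 31.6 to 38.0 CPM (median 33.0) in WT rats, a 1.16-fold difference (log2 fold change 0.21, SE 0.05, edgeR adjusted p = 0.00410). The groups overlapped through WT rat 27 (38.0 CPM), while the next WT rat was 34.4 CPM. RB1 pointed the other way, at 45.8 to 68.8 CPM (median 59.9) in KO and 58.0 to 76.8 CPM (median 68.1) in WT rats. Its log2 fold change of -0.19 (SE 0.09, edgeR adjusted p = 0.118) did not pass the test. With the number range as a covariate the value was -0.20 with an edgeR adjusted p of 0.0183, so the RB1 call depends on that term. RBL1 was 3.32 to 7.32 CPM in KO and 3.59 to 5.76 CPM in WT rats (log2 fold change 0.29, SE 0.14, edgeR adjusted p = 0.128). Without KO rat 32, the lowest, RBL1 passed (log2 fold change 0.40, edgeR adjusted p = 0.0197).

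The activators E2F2 and E2F3 overlapped between genotypes in the rats. E2F2 was 2.83 to 3.42 CPM (median 2.98) in KO and 1.73 to 3.42 CPM (median 3.01) in WT animals, with a log2 fold change of 0.09 (SE 0.12, edgeR adjusted p = 0.600). E2F3 was 2.83 to 4.63 CPM (median 3.86) and 2.61 to 4.17 CPM (median 3.92), with a log2 fold change of 0.05 (SE 0.12, edgeR adjusted p = 0.787). Neither activator passed the test in the mouse.

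**Figure D2:**
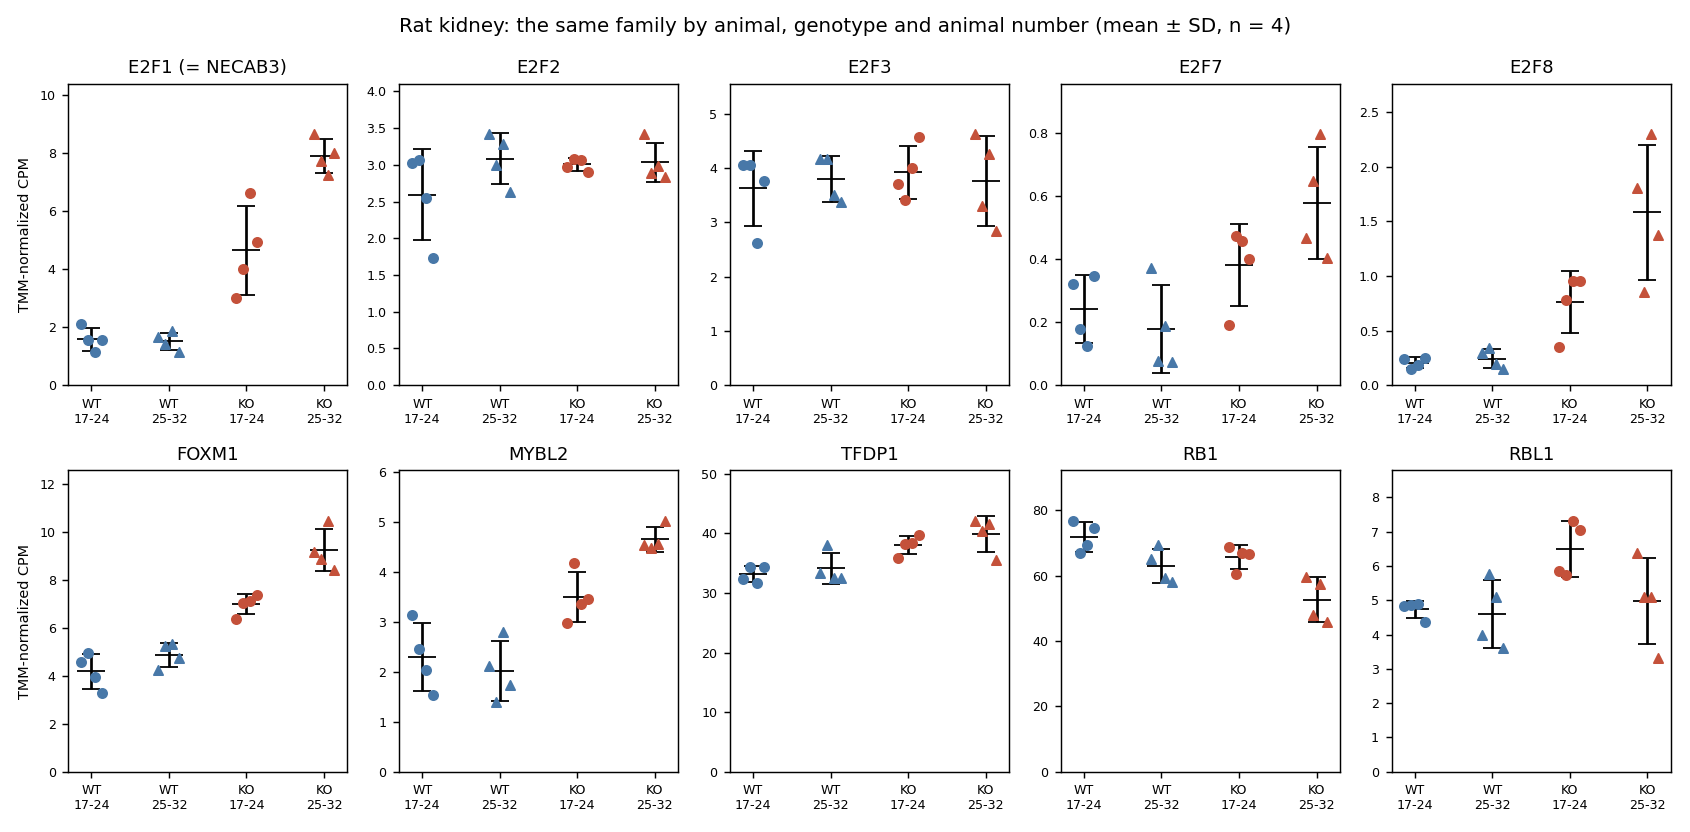
TMM-normalized CPM of each member in every rat by genotype (WT blue, KO red) and animal number (17 to 24 circles, 25 to 32 triangles), with the mean and SD of 4 animals and an axis from 0. For E2F1 (same row as NECAB3), E2F8 and FOXM1 all 8 KO rats are above all 8 WT rats, and the mean of KO rats 25 to 32 is above that of KO rats 17 to 24, while E2F2 and E2F3 overlap throughout.

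Promoter sequence (RefSeq, rat build GRCr8) was at hand for 6 of the 10 members: E2F3, E2F7, MYBL2, RB1, RBL1 and TFDP1. The window around each start, mostly upstream, was searched on both strands for E2F motifs (TTTCCCGC, TTTGGCGC, TTTCGCGC or TTTGCCGC), for the cell cycle genes homology region or CHR (TTTGAA or TTCGAA), to which MuvB binds, and for the CCAAT box. An E2F motif lay in 3 of the 6 (E2F3, RB1 and RBL1), against 2.14% of 33469 promoters. A CHR lay in 2 (E2F3 and TFDP1), against 19.7%, and a CCAAT box in 2 (E2F3 and E2F7), against 37.5%. None of these letters was found in the MYBL2 window. The stretches upstream of the start are shown for 4 of them to set the rat changes beside the letters there; capitals mark the motif.
E2F3, chr17:34810321-34810350, plus strand, CHR and E2F: tatggTTTGAAaagccgGCGGGAAAtctga
RBL1, chr3:166289377-166289406, minus strand, E2F: caagtaggcgatTTTCGCGCgctttgtcgc
TFDP1, chr16:82902229-82902258, minus strand, CHR: gggagatgtttccTTTGAAatgcgatgtgc
E2F7, chr7:48036823-48036872, plus strand, CCAAT box on the opposite strand: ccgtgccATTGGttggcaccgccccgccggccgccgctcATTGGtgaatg
Of these genes, TFDP1 and E2F7 were called higher across the 16 rats and E2F3 and RBL1 were not. A match to these letters is a description of the sequence only.

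Within rats 17 to 24, 5 of 10 members were higher in KO animals (edgeR, adjusted p under 0.05), where 5.07% of all symbols were. The E2F1 row was 3.002, 3.999, 6.62 and 4.91 CPM in KO rats 18, 20, 22 and 24 and 2.09, 1.53, 1.14 and 1.54 CPM in WT rats 17, 19, 21 and 23 (log2 fold change 1.57, SE 0.25, adjusted p = 0.00278). FOXM1 was 6.39, 7.05, 7.11 and 7.38 CPM against 4.59, 4.95, 3.94 and 3.27 CPM in the same order of rats (log2 fold change 0.75, SE 0.13, adjusted p = 0.00509). In this range every KO rat was above every WT rat for the E2F1 row, FOXM1, E2F8, RBL1 and TFDP1. The share of all symbols without overlap was not computed here, so this is a description only. E2F8 rose by 1.88 on the log2 scale (SE 0.39, adjusted p = 0.0107). RBL1 and TFDP1 rose by 0.46 and 0.21, with adjusted p-values of 0.0348 and 0.0486, but leaving out single animals ended the RBL1 call in 6 of 8 fits and the TFDP1 call in 7 of 8. MYBL2 (log2 fold change 0.63, adjusted p = 0.0898) and E2F7 (0.68, adjusted p = 0.413) did not pass the test; MYBL2 passed without WT rat 17 (0.80, adjusted p = 0.0284).

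Within rats 25 to 32, 6 of 10 members were higher in KO animals, where 21.8% of all symbols were. The E2F1 row was 8.65, 7.70, 7.25 and 7.97 CPM in KO rats 26, 28, 30 and 32 and 1.64, 1.40, 1.85 and 1.15 CPM in WT rats 25, 27, 29 and 31 (log2 fold change 2.39, SE 0.16, adjusted p = 2.82e-06). MYBL2 was 4.54, 4.46, 4.55 and 5.02 CPM against 2.12, 1.40, 2.79 and 1.74 CPM (log2 fold change 1.22, SE 0.20, adjusted p = 0.000706). For both, and for E2F7, E2F8 and FOXM1, every KO rat was above every WT rat in this range. Here too the share of all symbols without overlap was not computed, so this is a description only. FOXM1 was 9.18, 8.89, 10.5 and 8.42 CPM against 4.24, 5.25, 5.31 and 4.74 CPM (log2 fold change 0.92, SE 0.12, adjusted p = 0.000200). E2F8 rose by 2.66 (SE 0.38, adjusted p = 0.000333) and E2F7 by 1.76 (SE 0.47, adjusted p = 0.0122) on the log2 scale. TFDP1 rose by 0.23 (adjusted p = 0.0458), a call lost in 6 of 8 fits that left out one animal. RB1 had a log2 fold change of -0.26 (adjusted p = 0.0629) that passed without KO rat 26 (-0.32, adjusted p = 0.0358) or KO rat 30 (-0.30, adjusted p = 0.0495). RBL1 was at 0.11 (adjusted p = 0.696).

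The difference in genotype effect between the ranges was itself tested. It was called for 0 of 10 members (edgeR interaction, adjusted p under 0.05; 1 member had an unadjusted p under 0.05; DESeq2 also called 0), where 14.7% of all symbols were called in either direction. The nearest was the E2F1 row, whose effect was larger in rats 25 to 32 by 0.82 on the log2 scale (SE 0.31, adjusted p = 0.0841); it was called on leaving out KO rat 22. For MYBL2 the difference was 0.60 (SE 0.29, adjusted p = 0.168) and for FOXM1 0.17 (SE 0.18, adjusted p = 0.522). The KO effect on several markers of other cells, given below, did differ by range.

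Among KO rats alone, those numbered 25 to 32 had higher levels of 4 members than those numbered 17 to 24 and a lower level of 1, beside 22.6% of all symbols higher and 23.4% lower. The 4 were the E2F1 row (7.89 ± 0.586 against 4.63 ± 1.54 CPM, SD, n = 4, log2 difference 0.75, edgeR adjusted p = 0.0111), FOXM1 (9.24 ± 0.880 against 6.98 ± 0.421 CPM, 0.39, adjusted p = 0.0126), E2F8 (1.58 ± 0.618 against 0.760 ± 0.284 CPM, 1.05, adjusted p = 0.0311) and MYBL2 (4.64 ± 0.254 against 3.49 ± 0.501 CPM, 0.39, adjusted p = 0.0332). RB1 was lower, at 52.6 ± 6.78 against 65.7 ± 3.67 CPM (log2 difference -0.34, adjusted p = 0.0111). With shares of this size over all symbols, 5 of 10 members is near the background. The MYBL2 call was lost in 6 and the E2F8 call in 4 of 8 fits without one animal. Among WT rats the same contrast called 0 of the 8 members tested (edgeR; 1 had an unadjusted p under 0.05), where 18.3% of all symbols were called. That member was RB1, with a log2 difference of -0.21 (adjusted p = 0.0730) and levels of 62.9 ± 5.27 against 71.9 ± 4.61 CPM. E2F7 and E2F8 were below the count filter in that fit.

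**Figure D3:**
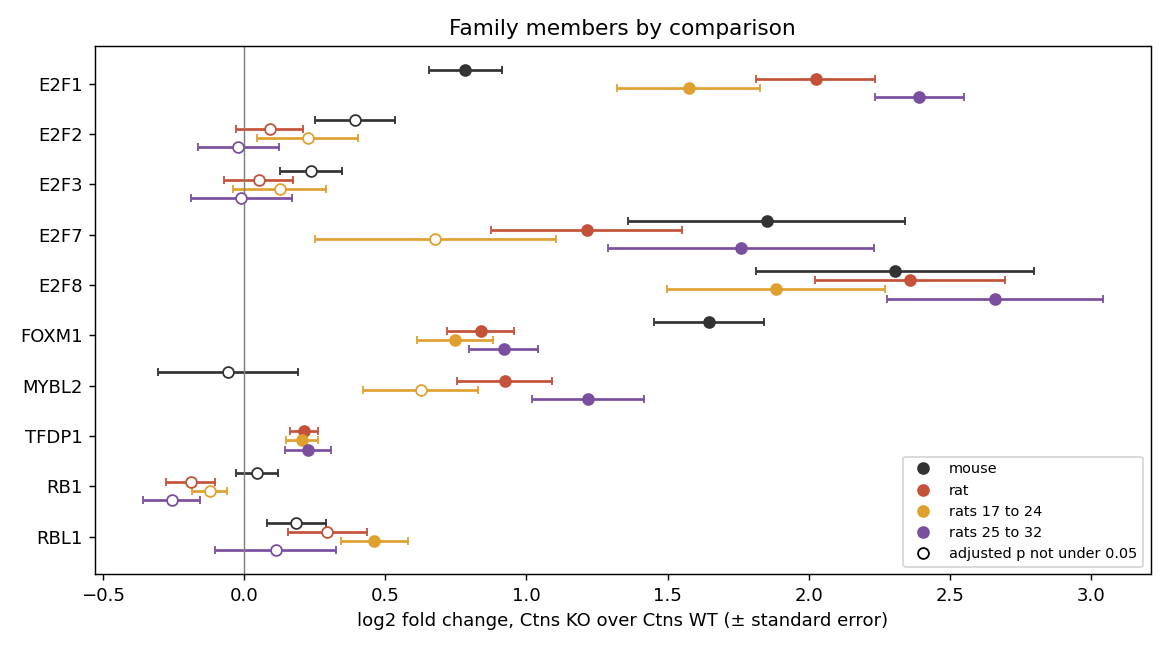
Log2 fold change of each member, Ctns KO over Ctns WT, with its standard error, in the mice (black), all rats (red), rats 17 to 24 (yellow) and rats 25 to 32 (purple); open circles have an adjusted p of 0.05 or more. E2F1 (the same row as NECAB3 in the rat), E2F8 and FOXM1 are filled and right of 0 in every comparison, E2F2 and E2F3 are open in every comparison, and MYBL2 is near 0 in the mice only.

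The size of the KO effect was also compared between species, on 8 members found in both tables at sufficient level. The tables were normalized separately, so fold changes and not levels were compared, and a symbol may stand for different gene models in each. One member was called (limma interaction, adjusted p under 0.05), where 1.98% of all symbols were called in either direction. This was E2F1, whose fold change was larger in the rat by 1.21 on the log2 scale (SE 0.32, adjusted p = 0.0496). The rat side of it is the row shared with NECAB3, and the call was lost in 20 of 24 fits without one animal. The member called also changed with the pseudocount: with log2(value + 1) and log2(value + 0.1) E2F1 was not called (adjusted p = 0.397 and 0.212) and MYBL2 was (adjusted p = 0.0357 and 0.0486). FOXM1 had a smaller fold change in the rat by a log2 difference of -0.77 (SE 0.22, adjusted p = 0.0687), and MYBL2 a larger one by 1.04 (SE 0.31, adjusted p = 0.0814), neither past the threshold. E2F8 differed by -0.10 (SE 0.60, adjusted p = 0.946), a standard error wide enough to hide a difference of either sign.

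Among the remaining members of the same machinery, few were called in the mouse, and calls in the rat went in both directions. Of the rest of the family tested in the mouse (E2F4, E2F5 and E2F6, TFDP2, RBL2, MYBL1 and MuvB subunits), 1 of 10 was higher and 0 lower in KO animals, with a median log2 fold change of -0.01 against 0.01 for all symbols. The one that rose was MYBL1, a relative of MYBL2, by 0.93 on the log2 scale (SE 0.21, limma adjusted p = 0.0134). Over all symbols tested in the mouse, 6.37% were higher and 2.33% lower. In the rat 1 of 11 was higher, again MYBL1 (1.43, SE 0.44, edgeR adjusted p = 0.0218), and 3 were lower, where 15.2% of all symbols were higher and 12.3% lower. MYBL1 also differed between WT rats of the 2 ranges, by 1.425 on the log2 scale (edgeR adjusted p = 0.00184). The 3 lower genes were TFDP2, another DP partner (-0.35, adjusted p = 0.00283), the RB relative RBL2, or p130 (-0.21, adjusted p = 0.0298), and the repressor E2F6 (-0.15, adjusted p = 0.0275). In that order they were called lower within rats 25 to 32 (-0.54, -0.35 and -0.23) and not within rats 17 to 24 (edgeR adjusted p = 0.169, 0.481 and 0.685). The difference between ranges was itself called for 0 of the 11. Genes on both sides of 0 gave a rat median of -0.002 against -0.02 for all symbols.

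Few of the genes that act on the RB proteins passed the test when all animals of a species were compared. In the mouse 2 of 12 kinase and inhibitor genes were higher and 0 lower: CDKN1A, the inhibitor p21 (log2 fold change 2.87, SE 0.17, limma adjusted p = 1.64e-05), and CCND1, cyclin D1 (0.67, SE 0.08, adjusted p = 0.000176). In the rat 1 of 8 was higher, CDKN1A (3.24, SE 0.41, edgeR adjusted p = 3.59e-05), while CCND1 was at 0.26 (adjusted p = 0.169). The catalytic partners CDK4 and CDK6 did not pass in the mouse or over all rats, with CDK4 at 0.19 in the mouse and 0.15 in the rat. Within rats 17 to 24, 1 of 8 was higher, CDKN1A, and within rats 25 to 32, 3 of 9 were. Those 3 were CDKN1A (3.95, SE 0.12, edgeR adjusted p = 4.60e-08), the inhibitor CDKN2B, or p15 (2.09, SE 0.33, adjusted p = 0.000665), and CDK4 (0.22, SE 0.07, adjusted p = 0.0290). CDKN2B was at 1.44 in the mouse (SE 0.41, limma adjusted p = 0.0509) and was below the count filter over all rats. CDK4, CDK6 and CDKN2B were named after their values were seen. CDKN1A was also the gene of this list whose KO effect differed between the rat ranges, being larger by 2.17 on the log2 scale in rats 25 to 32 (SE 0.22, edgeR adjusted p = 3.14e-05). With the number range as a covariate, 5 of the list were called in the rat in place of 1. That fit called more of all symbols as well, 4551 of 11703 against 3180 of 11584 without the covariate.

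Genes that E2F switches on at the G1/S boundary rose in number in both species. In the mouse 16 of 28 tested were higher in KO animals and 0 lower, with a median log2 fold change of 0.60 against 0.01 for all symbols. The largest were CLSPN, a checkpoint mediator (2.45, SE 0.31, limma adjusted p = 0.000221), BRCA1, a DNA repair factor (2.205, SE 0.23, adjusted p = 6.42e-05), and CDC6, which loads the replicative helicase (1.90, SE 0.22, adjusted p = 0.000134). In the rat 23 of 26 were higher and 0 lower, with a median of 1.17 against -0.02, led by CLSPN (2.49, SE 0.36, edgeR adjusted p = 0.000129), UHRF1, a maintenance factor of DNA methylation (2.41, SE 0.24, adjusted p = 3.22e-06), and CDC6 (2.27, SE 0.24, adjusted p = 6.08e-06). CLSPN and ORC1 were below the count filter in the fit of WT rats alone, so in the rat they were tested largely through their KO levels. The mouse filter took the mean over KO and WT mice together, so low genes of the list could pass it through their KO levels there too. The 12 that did not pass in the mouse included both E-type cyclins, CCNE1 (0.99, adjusted p = 0.109) and CCNE2 (0.50, adjusted p = 0.336). The summed level of the list was 7.22 to 7.74 in KO and 5.17 to 5.83 in WT mice, and 515 to 633 CPM in KO and 443 to 497 CPM in WT rats, so that the groups did not overlap in either species.

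The genes of G2 and mitosis that MYBL2-MuvB and FOXM1 act on showed the largest differences of the lists. In the mouse 28 of 29 were higher in KO animals and 0 lower, with a median log2 fold change of 2.31. Levels were low in WT mice, and the filter took the mean over KO and WT mice together. Genes of the list near that filter could thus be tested through their KO levels. Fewer were called with the stricter filter given at the end. CCNB1, cyclin B1 (2.82, SE 0.35, limma adjusted p = 0.000221), HMMR, a spindle factor (2.696, SE 0.41, adjusted p = 0.00311), and CCNA2, cyclin A2 (2.66, SE 0.30, adjusted p = 0.000285), led the list, and CDC25B was the one that did not pass (0.21, adjusted p = 0.344). In the rat 24 of 24 tested were higher, with a median of 2.10, led by the mitotic kinases AURKB (2.73, SE 0.23, edgeR adjusted p = 6.09e-07) and TTK (2.67, SE 0.22, adjusted p = 4.56e-07) and by UBE2C, a ubiquitin-conjugating enzyme of mitotic exit (2.66, SE 0.26, adjusted p = 2.55e-06). The summed level was 2.89 to 5.70 in KO and 1.02 to 1.46 in WT mice, and 133 to 274 CPM in KO and 53.4 to 72.8 CPM in WT rats. In the mouse this difference stood beside a MYBL2 level that overlapped between genotypes. Within rats 17 to 24, 21 of 24 mitotic genes and 13 of 25 G1/S genes were higher, with medians of 1.68 and 0.71. Within rats 25 to 32 the counts were 25 of 25 and 22 of 26, with medians of 2.49 and 1.22. CENPA, among those 25, was below the count filter over all rats and within rats 17 to 24. The KO effect differed between ranges for 5 of 25 mitotic genes (among them AURKB, larger by 1.32 in rats 25 to 32, adjusted p = 0.00267) and for 5 of 26 G1/S genes (among them CDC45, by 1.09, adjusted p = 0.0126). All of these calls were toward a larger effect in rats 25 to 32, the direction in which 7.1% of all symbols were called.

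**Figure D4:**
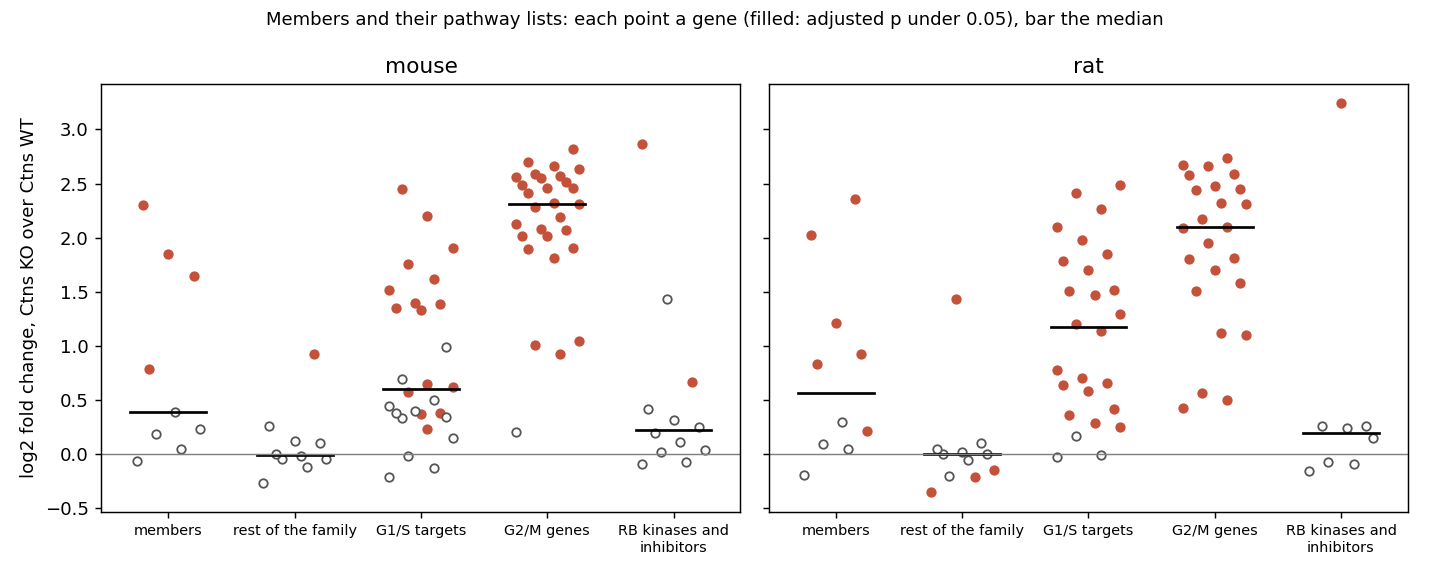
Log2 fold change, Ctns KO over Ctns WT, of every tested gene of the members and of 4 related lists in the mouse (left) and the rat (right); filled points have an adjusted p under 0.05 and bars mark the median. The G2/M list has medians of 2.31 and 2.10 and the G1/S list of 0.60 and 1.17. The rest of the family has medians around 0, with MYBL1 higher at 0.93 and 1.43. CDKN1A has the largest value among the genes acting on RB proteins, 2.87 and 3.24.

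Markers of other cells moved with genotype as well. In bulk samples fewer cells of a type and less RNA per cell cannot be told apart, and neither can more of either. Macrophage markers were higher in KO animals for 6 of 7 genes in each species, and their summed level was 3.49 to 4.12 in KO and 2.36 to 2.57 in WT mice and 137 to 372 CPM in KO and 88.8 to 153 CPM in WT rats. Fibroblast markers were higher for 3 of 6 genes in the mouse (summed 6.30 to 7.06 in KO and 3.49 to 4.30 in WT) and for 5 of 6 in the rat (324 to 533 and 258 to 297 CPM). Lymphocyte markers were higher for 0 of 6 in the mouse (summed 0.143 to 0.217 and 0.106 to 0.174) and for 4 of 4 in the rat (26.8 to 55.0 and 16.8 to 33.5 CPM), and every listed marker of these 3 cell types had reads. Proximal tubule markers were lower for 1 of 9 in the mouse (summed 439 to 471 and 521 to 616) and for 4 of 7 in the rat (13990 to 17560 and 19470 to 27790 CPM). Between the rat ranges the KO effect was larger in rats 25 to 32 for 4 of 7 macrophage markers and 1 of 6 fibroblast markers, and more negative for 4 of 7 proximal tubule markers. The part of these cells in the levels of E2F1, E2F7, E2F8, FOXM1 and MYBL2 was not tested.

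After the mean of each genotype and number range was taken off, the members did not vary as one block over the 16 rats. The highest Pearson r of log2 CPM between members were 0.74 for RB1 with E2F3, 0.73 for RBL1 with TFDP1, and 0.71 for E2F3 with TFDP1. E2F2 and MYBL2 followed at 0.67. FOXM1 and MYBL2 had an r of 0.46, the E2F1 row and E2F8 0.45, and MYBL2 and RB1 -0.31. Among 10800 symbols at 1 CPM or more, those most like FOXM1 were ABCC5 (0.93), PRKD2 (0.87), SPRING1 (0.83), ARAP1 (0.83) and EML4 (0.83). For the E2F1 row they were NECAB3 (identical, 1), CCNA2 (0.82), AZGP1 (0.81), MCM6 (0.80) and FGGY (0.80), of which CCNA2 and MCM6 are themselves cell cycle genes. For RB1 they were PDE3B (0.95), SNX12 (0.94), ASB13 (0.94), SPPL2A (0.93) and VPS50 (0.92). These are descriptions over animals that share depth and composition.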

How the data were processed

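Total RNA from mouse and rat kidney was made into stranded mRNA libraries and sequenced as paired reads. The authors deposited mouse values as a scaled signal and rat values as estimated counts; the formulas are in no text and were worked out here. Mouse values are reads plus 0.5 over the library's 75th percentile plus 0.5 (99.0% of values whole within 0.01), and rat values are reads plus a sixth (97.7% whole), taken off before rounding. The submitters' processing notes name bcl2fastq 2.20, STAR 2.7.3, DESeq2 1.24.0 and R 3.6.1 with builds mm10 and rn5; their roles are not given. Table columns of other series numbered 0. In R 4.3.3, mouse log2 values (no further pseudocount, mean of at least 0.01) were fitted with limma 3.58.1 (trend, robust). Rat reads were fitted with edgeR 4.0.16 (quasi-likelihood, robust, TMM, its count filter). P-values were adjusted over all symbols by Benjamini-Hochberg with a threshold of 0.05; adjusted p-values in the text are these. Lengths came from GENCODE vM21. Every member was named, with up to 3 called genes of each list with the largest change. Members and lists were chosen with earlier results of these data known. Alternatives were other pseudocounts, filters, DESeq2 1.42.0, edgeR on the recovered mouse reads, limma-voom, the number range as covariate, a surrogate variable (sva 3.50.0) and leaving out animals. The limma and edgeR fits were tested on simulated data. The other steps, and the fits at read numbers as low as those of E2F7 and E2F8, were not tested in this way. Animals are the replicates, and depth covers counting error only. Some marker genes are not reported here by name and stay in the counts and sums of their lists.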

Additional observations from a re-analysis of the deposited data

Results flagged for a closer look

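In 2 groups of rats one animal stood apart from the rest by more than Dixon's 95% critical value, among 38 groups of member values examined; chance flags about 1 in 20 groups. E2F2 in KO rat 26 was 3.421 CPM, where the next KO rat was 3.084 CPM. TFDP1 in WT rat 27 was 37.97 CPM, where the next WT rat was 34.38 CPM.

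The KO effect on E2F1 differed between mouse and rat by 1.211 on the log2 scale (limma interaction, adjusted p = 0.0496), which passed the threshold narrowly. Its rat row is the one identical to NECAB3.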

How the results depend on the processing

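No paired analysis was possible because the groups share no animal numbers. With a mouse filter at a mean of 0.1, 1 member was called, E2F1; E2F2, E2F7, E2F8, FOXM1 and MYBL2 were not tested under it. That filter left 0 calls in the rest of the family, 10 in the G1/S and 6 in the G2/M list, and 722 of all symbols against 1143. On recovered mouse reads, edgeR and DESeq2 each called 2 in the rest of the family, and DESeq2 called 4 genes acting on RB proteins; edgeR called 1198 symbols and DESeq2 1520. In the rat the count of genes acting on RB proteins was 2 with DESeq2, 2 without a filter, 5 with the number range as covariate and 5 with 1 surrogate variable, which called 4864 of all symbols against 3180. The species difference called 0 members without a filter and 0 with a mean of at least 0.1, where of the members only RB1 and RBL1 were tested. With log2(value + 1) or log2(value + 0.1) it called MYBL2 in place of E2F1. It reversed for FOXM1 (0.0047) and RBL1 (-0.0021) with log2(value + 1), and for E2F8 with edgeR on both species (0.23). Mouse E2F7 lost its call with log2(value + 1) and without a filter (adjusted p = 0.0587 and 0.0532). By longest transcript, RPKM in KO and WT mice was 2.90 and 1.59 for E2F1, 0.170 and 0.0499 for E2F7, 1.11 and 0.332 for FOXM1, 11.2 and 10.3 for RB1 and 2.59 and 2.18 for RBL1, and in KO mice 0.385 for E2F8 and 0.506 for MYBL2.

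Leaving out single animals gave these ranges of log2 fold change where a sign turned: mouse MYBL2 -0.21 to 0.10 and RB1 -0.00042 to 0.095; rat E2F3 -0.0099 to 0.12; rats 17 to 24 E2F3 -0.0061 to 0.19; rats 25 to 32 E2F2 -0.091 to 0.033, E2F3 -0.13 to 0.10 and RBL1 -0.035 to 0.26. For the difference between ranges, TFDP1 ran from -0.0031 to 0.081; for that between species, E2F8 from -0.38 to 0.50. Between KO rats of the 2 ranges, E2F2 ran from -0.066 to 0.034 and E2F3 from -0.19 to 0.040; between WT rats, E2F1 from -0.21 to 0.076, E2F3 from -0.082 to 0.11, RBL1 from -0.18 to 0.049 and TFDP1 from -0.032 to 0.042. Members called ran from 3 to 5 in rats 17 to 24, 0 to 1 for the range difference, 0 to 2 for the species difference, 0 to 1 in WT rats and 3 to 4 between KO rats of the 2 ranges (5 with all animals). List counts ran from 2 to 4 for mouse genes acting on RB proteins, 0 to 2 for the mouse and 2 to 4 for the rat rest of the family. Without KO mouse 5 or 6, 634 or 633 of all mouse symbols were called. Leaving out animals in fits between ranges and between species was chosen after seeing the data. The causes of these moves were not tested. The calls of E2F1, E2F7, E2F8, FOXM1, MYBL2 and TFDP1 over all 16 rats held under every alternative run, as did those of E2F1, E2F8 and FOXM1 in the mouse wherever they were tested.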
